A study of Homo sapiens with 6 samples.

Results

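The S100 proteins are small calcium-binding proteins that carry a pair of EF-hand motifs, and most of their genes lie side by side on human chromosome 1. Here 10 of them were followed in the MCF10DCIS.com breast cancer line with and without silencing of WDR5, and they were taken from a table of 26334 genes by name: S100A2, S100A4, S100A6, S100A7, S100A8, S100A9, S100A10, S100A11, S100A14 and S100A16. The list was chosen by the measured rise of S100A8 in shWDR5 over shLuc, with its family members added by name and no threshold applied to them. Their values in that comparison are therefore given as a description, without p-values. A second set held another 11 S100 genes and receptors, partners, regulators and inducers of S100 proteins. It was listed from general knowledge of the family, with earlier results of these data known, and tested.

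MCF10DCIS.com is a human line of the MCF10A lineage that forms lesions resembling ductal carcinoma in situ in mice. Both groups were grown in the same DMEM/F12 medium with 5% horse serum, 1.05 mM calcium chloride, glutamine, HEPES and antibiotics. Both were infected with a vector that expresses a hairpin from the U6 promoter and TagRFP and puromycin resistance from the UbiC promoter, and were selected with puromycin at 3 µg/ml. The hairpin was directed at luciferase in the shLuc group (n = 3 libraries) and at WDR5, a core subunit of histone H3 lysine 4 methyltransferase complexes, in the shWDR5 group (n = 3 libraries). The study's methods describe pooled WDR5 hairpins for its animal experiments, and the labels do not say how many were used here. An effect of a hairpin other than on WDR5 cannot be told apart from silencing in these libraries, and all values come from a single line. Whether the 3 libraries of a group came from separate cultures is not stated in the labels, so the p-values measure only the spread between these libraries.

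S100 proteins act in several places. Inside the cell they bind targets when calcium rises, such as annexins and non-muscle myosin. Some are secreted, and S100A8 and S100A9 form a heterodimer, calprotectin, that binds metal ions, restrains microbes and engages the receptors TLR4 and RAGE. S100A8 and S100A9 are best known from neutrophils and monocytes, but keratinocytes and other stratified epithelial cells also make them, along with S100A7, when they are inflamed or stressed.

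The silenced gene was lower in every shWDR5 library. Levels are given as CPM, the usual library-scaled count, with library sizes adjusted by the trimmed mean of M-values (TMM). WDR5 stood at 52.6, 48.5 and 51.3 CPM in the shLuc libraries and at 23.4, 24.4 and 20.8 in the shWDR5 libraries, a 2.22-fold fall (log2 fold change -1.15 ± 0.07 SE, adjusted p = 8.67e-07 in edgeR's quasi-likelihood test). Between 38218108 and 57640167 counts were assigned to genes per library, and 16117 genes passed the filter on low counts. Of these 56.5% were called at an adjusted p below 0.05, 26.6% higher and 29.9% lower in shWDR5, so a call was common in this comparison. The labelled cell type could be checked: all 8 epithelial markers, among them the basal keratins KRT5, KRT14 and KRT17, were tested. Their summed level was 8217 to 9050 CPM in shLuc and 12881 to 14585 CPM in shWDR5. Of them 6 rose, while EPCAM and CDH1, which are not particular to basal cells, fell. Markers of leukocytes, the other main source of S100A8 and S100A9, summed to 15.6 to 17.9 CPM in shLuc and 15.9 to 18.6 CPM in shWDR5. Of these 10 leukocyte genes only 4 passed the filter, ITGAM rose, CD14 fell, and LYZ and CD68 were not called. The other 6 were near 0: PTPRC, MPO and S100A12 reached at most 0.151, 0.129 and 0.132 CPM in any library, and CSF3R, ELANE and FCGR3B at most 0.0352 CPM. In CPM, PTPRC was higher and MPO lower in every shWDR5 library than in any shLuc library, at no more than 7 counts. Fibroblast markers (6 genes) summed to 21.6 to 23.7 CPM in shLuc and 14.9 to 17.8 CPM in shWDR5, nearly all of it COL1A1 with LUM at 0 in every library, and endothelial markers (4 genes) to 7.81 to 8.45 and 5.31 to 6.02 CPM. The part of these markers in the S100 values was not tested. In bulk libraries such as these, more cells of a kind and more RNA per cell cannot be told apart.

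The sequences around the starts of these genes fall into different kinds, and they are shown first because the values below can be read beside them. Each is a RefSeq stretch of 150 bases on GRCh38.p14, 120 before the annotated start and 30 from it on, written 5′ to 3′ on the strand of the gene. All 10 genes had a matching entry. The first 4 genes had the largest rises of the list, and the capitals mark TATAAA, the core of a TATA box. S100A8 has 3 annotated starts, and the stretch at the middle one is shown because it holds the motif near its start, whereas the start in the count table's annotation is another of the 3.
S100A8, chr1:153391044-153391193, minus strand: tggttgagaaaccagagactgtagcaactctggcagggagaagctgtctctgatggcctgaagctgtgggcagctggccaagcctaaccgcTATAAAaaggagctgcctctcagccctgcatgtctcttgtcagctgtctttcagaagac
S100A7, chr1:153460622-153460771, minus strand: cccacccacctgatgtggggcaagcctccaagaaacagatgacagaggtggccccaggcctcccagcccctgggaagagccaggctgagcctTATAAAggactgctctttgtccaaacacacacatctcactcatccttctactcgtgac
S100A9, chr1:153357734-153357883, plus strand: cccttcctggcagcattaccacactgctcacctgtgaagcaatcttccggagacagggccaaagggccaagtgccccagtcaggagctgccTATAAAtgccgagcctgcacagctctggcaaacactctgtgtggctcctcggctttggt
S100A4, chr1:153545777-153545926, minus strand: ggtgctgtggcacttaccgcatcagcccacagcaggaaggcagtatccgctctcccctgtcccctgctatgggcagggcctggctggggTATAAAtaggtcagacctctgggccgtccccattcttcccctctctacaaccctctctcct
S100A6 is shown as an example of the other kind, a start rich in CG dinucleotides, which are in capitals. Measured by the distance to S100A9, the S100A6 start used lies 250 bases from that in the count table's annotation.
S100A6, chr1:153535962-153536111, minus strand: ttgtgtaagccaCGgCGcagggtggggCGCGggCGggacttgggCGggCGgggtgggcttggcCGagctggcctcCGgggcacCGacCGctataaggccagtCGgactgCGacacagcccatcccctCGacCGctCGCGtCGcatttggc
S100A14, the gene that was lower in shWDR5, had no exact TATAAA and few CG dinucleotides, and no base is in capitals. Its stretch and that of S100A6 both hold TATAAG, which differs from the motif in the last base only. It lies close to where the first 4 genes hold TATAAA, and such near matches were not marked.
S100A14, chr1:153616296-153616445, minus strand: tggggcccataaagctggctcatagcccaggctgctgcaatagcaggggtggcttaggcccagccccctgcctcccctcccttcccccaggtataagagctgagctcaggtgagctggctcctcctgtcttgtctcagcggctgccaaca

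S100A8, the smaller subunit of calprotectin, was nearly silent in the control cells and clearly present after silencing. It had 0.769, 0.361 and 0.719 CPM in the shLuc libraries, from only 38, 14 and 29 counts, and 10.8, 9.27 and 9.11 CPM in the shWDR5 libraries, from 499, 527 and 413 counts. The lowest shWDR5 library lay far above the highest shLuc library. The fitted difference was 15.4-fold (log2 fold change 3.94 ± 0.18 SE), which placed S100A8 at rank 9 of the 16117 genes by log2 fold change. The spread of the shLuc libraries was 36.1% of their mean, the widest of the 10 genes.

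S100A9, the partner of S100A8 in calprotectin, was already expressed in control cells. Its levels were 36.1, 30.3 and 45.9 CPM in shLuc and 139, 119 and 122 CPM in shWDR5. Again the groups did not overlap, and the fitted difference was 3.38-fold (log2 fold change 1.76 ± 0.13 SE). Because the subunits changed by different amounts, their balance moved: per length, in CPM per kilobase of exon (RPKM), the level of S100A9 was 42.5, 76.1 and 57.9 times that of S100A8 in the shLuc libraries and 11.7, 11.6 and 12.2 times in the shWDR5 libraries. S100A9 mRNA thus remained in excess over S100A8 mRNA in all 6 libraries.

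S100A7, or psoriasin, an antimicrobial protein of inflamed epidermis and of ductal carcinoma in situ, followed the same pattern at a low level. It was at 2.83, 2.50 and 3.64 CPM in shLuc and at 13.4, 10.3 and 12.6 CPM in shWDR5, a 4.03-fold difference (log2 fold change 2.01 ± 0.14 SE) with no overlap. Its close copy S100A7A shares much of its sequence, and the split of reads between them depends on how reads with several matches were counted, which is not given in the sources used here.

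S100A4, which binds non-muscle myosin and is widely used as a marker of motile and mesenchymal cells, was also higher after silencing. The shLuc libraries held 17.0, 14 and 17.3 CPM and the shWDR5 libraries 53.2, 41.9 and 45.2 CPM. The difference was 2.89-fold (log2 fold change 1.53 ± 0.11 SE), and all shWDR5 values exceeded all shLuc values. The gene overlaps LOC101928034 in the table's annotation, so some reads could belong to either.

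The abundant members differed by smaller factors from a far higher level. S100A2, a p53- and p63-responsive protein of basal epithelial cells, was at 4516, 3499 and 3885 CPM in shLuc and at 6377, 6025 and 5760 CPM in shWDR5, 1.53-fold higher (log2 fold change 0.61 ± 0.09 SE). S100A6, or calcyclin, stood at 1866, 1415 and 1560 CPM in shLuc and at 3259, 2848 and 2814 CPM in shWDR5, 1.84-fold higher (log2 fold change 0.88 ± 0.10 SE). In both genes the first shLuc library was the highest control and still lay below every shWDR5 library. S100A10, which forms a tetramer with annexin A2 at the membrane, ranged from 557 to 640 CPM in shLuc and from 867 to 981 CPM in shWDR5 (log2 fold change 0.65 ± 0.07 SE). S100A11, an annexin A1 partner known from keratinocytes, ranged from 821 to 965 CPM in shLuc and from 1374 to 1614 CPM in shWDR5 (log2 fold change 0.73 ± 0.08 SE). The groups did not overlap for either.

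S100A14 went the other way. This member, found mainly in epithelial cells and at 1465, 1284 and 1256 CPM in shLuc, was at 468, 498 and 418 CPM in shWDR5, 2.89-fold lower (log2 fold change -1.53 ± 0.08 SE). It was the single gene of the list whose shWDR5 libraries all lay below the shLuc libraries. Its immediate neighbour S100A16, a widely expressed member, was at 876, 780 and 753 CPM in shLuc and at 927, 841 and 787 CPM in shWDR5. The groups overlapped, and the log2 fold change was 0.08 ± 0.07 SE with a 95% interval from -0.06 to 0.23.

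By the call used for all genes, 8 of the 10 were higher in shWDR5, against 26.6% of all genes tested, and 1 was lower, against 29.9%. S100A16 was not called. The 3 shWDR5 libraries did not overlap the 3 shLuc libraries for 9 of the 10 genes, against 62.3% of all genes. The median log2 fold change of the list was 0.81, and that of all genes -0.01. These counts repeat the contrast that led to the choice of the list, and nothing is read from them.

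**Figure D1:**
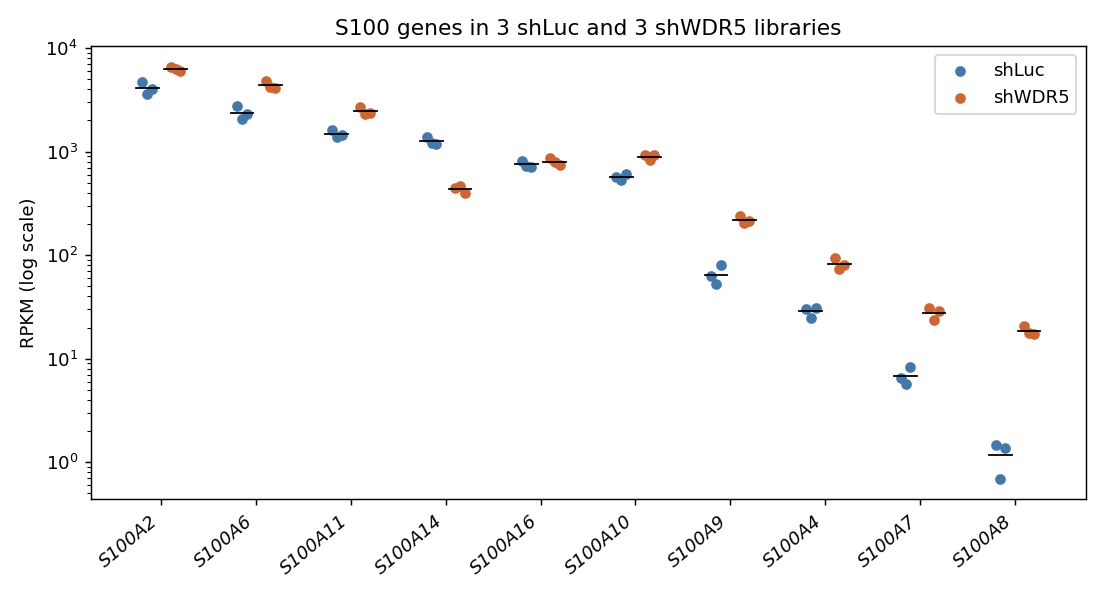
RPKM of each gene (vertical axis, log scale) in the 3 shLuc and the 3 shWDR5 libraries, with points for libraries, horizontal lines for group means and genes ordered by their control level. The shWDR5 points lie above the shLuc points for 8 genes, below them for S100A14, and among them for S100A16.

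The control cells expressed these genes over a range of more than 3 orders of magnitude. On the RPKM scale, which allows genes to be compared, S100A2 averaged 4123 ± 533 (SD, n = 3) in shLuc and ranked 2 among the 20780 genes with counts there. S100A6 followed at 2363 ± 337 and rank 10, and S100A11 at 1486 ± 125 and rank 19. S100A14 (1260 ± 107), S100A16 (752 ± 60.2) and S100A10 (569 ± 39.6) formed a middle group. Below them lay S100A9 at 64.8 ± 13.6, S100A4 at 28.6 ± 3.27, S100A7 at 6.82 ± 1.34 and S100A8 at 1.18 ± 0.43 RPKM, at ranks 953, 2357, 7260 and 11735. The libraries of neighbours in this order did not overlap at any step.

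After silencing, S100A2 averaged 6293 ± 322 RPKM, S100A6 4354 ± 363 and S100A11 2467 ± 218. S100A14 had dropped to 435 ± 37.98 RPKM, below S100A10 at 892 ± 60.5 and S100A16 at 797 ± 66.0. The libraries of S100A10 and S100A16 overlapped in shWDR5. S100A9 stood at 219 ± 18.3, S100A4 at 82.9 ± 10.3, S100A7 at 27.5 ± 3.69 and S100A8 at 18.6 ± 1.75 RPKM. The mean was higher in shWDR5 by 17.4 RPKM for S100A8, 20.7 for S100A7, 45.5 for S100A16, 54.3 for S100A4 and 155 for S100A9. It was higher by 323 RPKM for S100A10, 982 for S100A11, 1991 for S100A6 and 2170 for S100A2. The mean of S100A14 dropped by 824 RPKM. Together the 10 genes took 1.05%, 0.853% and 0.926% of all counts in the shLuc libraries and 1.34%, 1.25% and 1.21% in the shWDR5 libraries, and their mean summed CPM in shWDR5 was 1.40 times that in shLuc. S100A2 alone made up 37.7% to 39.4% of their summed RPKM in shLuc and 39.6% to 41.4% in shWDR5.

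Over the 10 genes the control level and the log2 fold change were inversely ordered, with a Spearman rho of -0.71. The control level enters both measures, the genes share the same libraries, and this is a description. The genes below 100 RPKM in shLuc had log2 fold changes of 1.53 to 3.94, and those above it had values of -1.53 to 0.88.

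**Figure D2:**
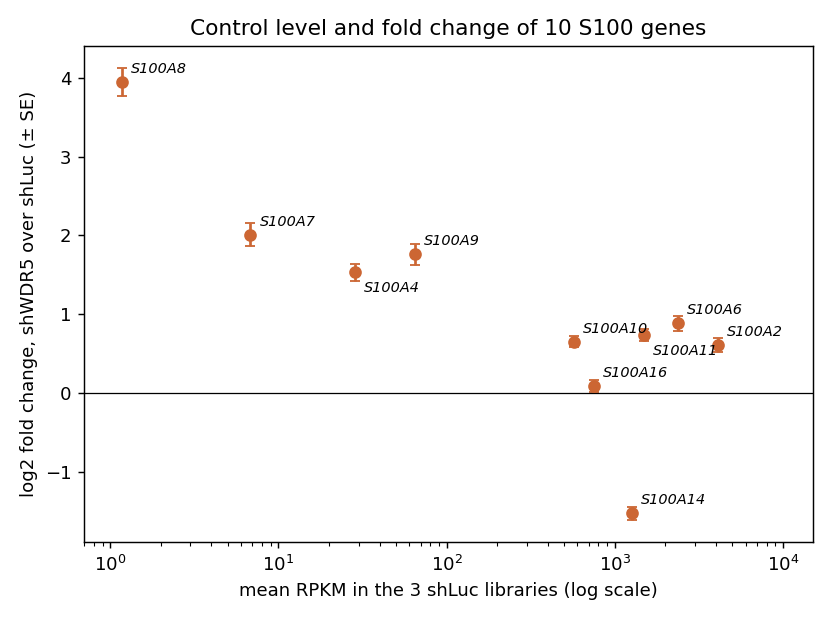
Log2 fold change of shWDR5 over shLuc (vertical axis, bars are SE) against the mean RPKM in the 3 shLuc libraries (horizontal axis, log scale), 1 point per gene. S100A8, S100A7, S100A4 and S100A9 stand at the upper left, the abundant genes near or below 1, and S100A14 at -1.53.

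All 10 genes lie on chromosome 1, within 1.63 Mb of the hg19 build used for the counts, from S100A10 (chr1:151955386-151966714, minus strand) to S100A14 (chr1:153586732-153588808, minus strand). S100A10 and S100A11 (chr1:152004982-152009511, minus strand) lie apart at one end, and the other 8 sit close together. S100A9 (chr1:153330330-153333503, plus strand), S100A8 (chr1:153362508-153363664, minus strand) and S100A7 (chr1:153430220-153433137, minus strand), all with 3 exons, follow each other, with S100A12, S100A7A and S100A7L2 between them. S100A6 (chr1:153507076-153508717), S100A4 (chr1:153516095-153518282), S100A2 (chr1:153533585-153538306) and S100A16 (chr1:153579367-153585514) come next, all on the minus strand. The largest fold changes thus belonged to neighbours: relative to the start of S100A8, S100A9 starts at -33.3 kb, S100A7A at 25.3 kb and S100A7 at 69.5 kb. At the far end S100A16 and S100A14 lie next to each other and had log2 fold changes of 0.08 and -1.53. The interval holds 66 genes, of which 51 are not S100 genes. Of the 23 of these that passed the filter, 15 were higher and 2 lower in shWDR5 by the call used for all genes (26.6% and 29.9% of all genes tested), and 6 were not called.

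**Figure D3:**
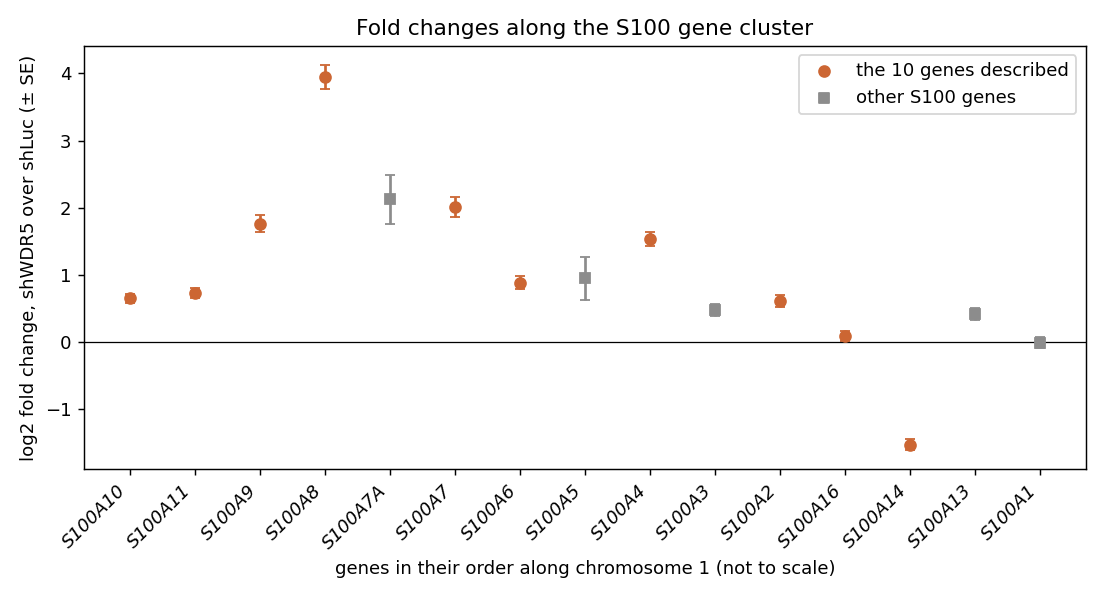
Log2 fold change of shWDR5 over shLuc with SE for the 15 tested S100 genes of chromosome 1, in their order along the chromosome and not to scale, circles for the 10 genes described and squares for other S100 genes. Values peak at S100A8 (3.94), with S100A9, S100A7A and S100A7 beside it at 1.76 to 2.12, and reach their lowest at S100A14.

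Of the other 11 S100 genes, 7 passed the filter, and 6 of these rose (26.6% of all genes rose), none fell, and S100A1 did not pass the test. S100A7A and S100A5 would not have passed the filter on their shLuc libraries alone, so a rise was nearly built into their testing. S100A7A rose 4.35-fold (log2 fold change 2.12 ± 0.36 SE, adjusted p = 0.000547), from 0.081, 0.103 and 0.273 CPM in shLuc to 0.734, 0.633 and 0.596 CPM in shWDR5. At 4 to 11 control counts it is a small signal, and reads could be shared with S100A7. S100B, a member best known from glia and melanocytes, whose gene lies on chromosome 21 and not in the cluster, was at 50.1, 44.0 and 55.5 CPM in shLuc and at 100.1, 96.6 and 91.2 CPM in shWDR5 (log2 fold change 0.94 ± 0.08 SE, adjusted p = 6.19e-06). S100A5, whose levels stayed at or below 0.618 CPM, rose by 0.95 ± 0.32 on the log2 scale (adjusted p = 0.0261). This call was lost without shLuc replicate 2, shWDR5 replicate 2 or shWDR5 replicate 3 (adjusted p = 0.0684, 0.0620 and 0.0596 in edgeR), which left 5 of the 7 genes called.

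S100A3, a member of hair cuticle cells, ranged from 8.82 to 9.93 CPM in shLuc and rose to between 12.04 and 14.8 CPM in shWDR5 (log2 fold change 0.48 ± 0.09 SE, adjusted p = 0.00142). S100P, whose gene is on chromosome 4, ranged from 44.2 to 59.8 CPM in shLuc and rose to between 70.6 and 83.9 CPM in shWDR5 (log2 fold change 0.46 ± 0.11 SE, adjusted p = 0.00555). S100A13, which takes part in the release of signal-less growth factors, rose by 0.41 ± 0.09 on the log2 scale (adjusted p = 0.00277), while S100A1, on the opposite strand and overlapping it, had a log2 fold change of -0.01 ± 0.08 SE (adjusted p = 0.924). Reads from these overlapping genes cannot be told apart without strand information. The median log2 fold change of the 7 genes was 0.48, against -0.01 over all genes tested. S100A12, the third calgranulin, had at most 6 counts in any library, S100Z had none, and S100A7L2 and S100G had 1 count each.

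Sequence features of the starts were compared over all 35116 RefSeq windows of 300 bases (250 before a start and 50 after). The hexamer TATAAA, searched on both strands, was found for S100A4, S100A7, S100A8 and S100A9 and for none of the other 6 genes, against 11.5% of all windows. It began on the strand of the gene 31, 28, 29 and 29 bases before the start, in that order, and 2.30% of all windows hold TATAAA on that strand within 40 to 20 bases before the start. In S100A8 this holds for the middle start. These 4 genes were the members with the largest log2 fold changes (1.53 to 3.94). Over the tested genes with a window, 287 had TATAAA in that position, of which 35.5% were called higher and 28.2% lower, with a median log2 fold change of 0.12. The 11094 others had 26.6% higher, 31.8% lower and a median of -0.03. With TATAAA anywhere in a window on either strand, the difference was smaller: 1060 genes had 30.5% higher, 28.4% lower and a median of 0.02. The motifs were chosen after the values were seen. Only exact matches were counted, so the TATAAG near the starts of S100A6 and S100A14 was left out.

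The starts of S100A10, S100A6 and S100A11 held 32, 31 and 22 CG dinucleotides, against a median of 14 over all windows, whereas the windows of the other 7 genes held 2 to 8. Measured by the distance to S100A9, the starts used for S100A10 and S100A6 lie 379 and 250 bases from those in the count table's annotation. The CG-rich genes had log2 fold changes of 0.65, 0.88 and 0.73, close to each other, and the CG-poor ones ranged from -1.53 to 3.94. Of the other motifs searched on both strands, TGANTCA, the AP-1 site, occurred in a single member window, that of S100A2 at position -52, against 7.71% of all windows. CACGTG, the E-box bound by MYC, was found in no member window, against 7.26%. TTNNGNAA, a loose form of the C/EBP site, was found for S100A6, S100A8, S100A9, S100A11 and S100A16, and in 36.8% of all windows. None of these matches says whether a factor binds there.

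**Figure D4:**
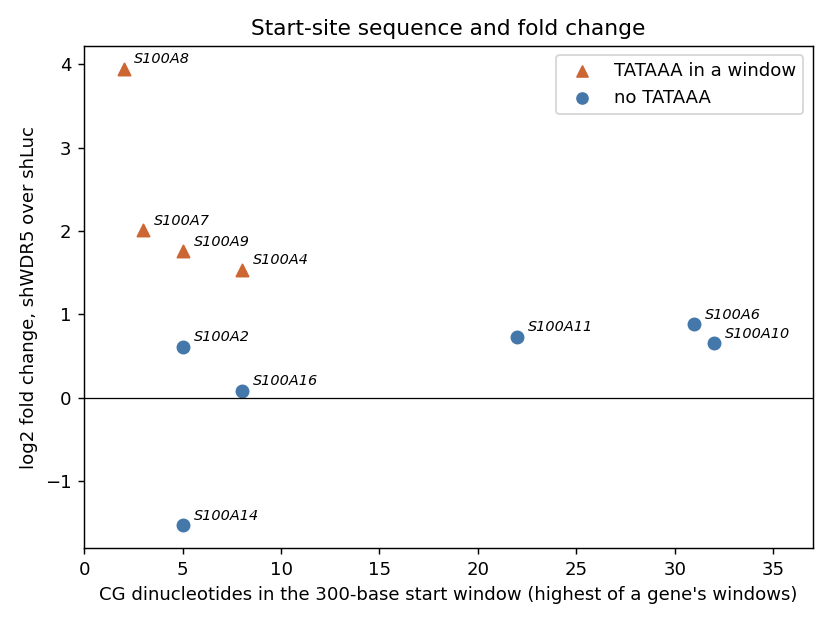
Log2 fold change of shWDR5 over shLuc (vertical axis) against the number of CG dinucleotides in the 300-base start window (horizontal axis, the highest of a gene's windows), with triangles for genes whose window holds TATAAA. The 4 triangles hold 2 to 8 CG dinucleotides and the 4 largest fold changes, and S100A6, S100A10 and S100A11 lie to the right at 22 to 32.

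Of 10 receptor genes for secreted S100 proteins 9 were tested, 3 rose, 4 fell and 2 were not called. Of all genes tested, 26.6% were higher and 29.9% lower. The median log2 fold change of the receptor genes lay near that of all genes, 0.00 against -0.01. AGER, which encodes RAGE, fell from 6.94, 7.45 and 6.39 CPM to 4.08, 4.35 and 3.84 CPM (log2 fold change -0.76 ± 0.09 SE, adjusted p = 7.26e-05). CD14, the co-receptor of TLR4, fell from 1.92, 1.47 and 1.51 CPM to 0.820, 0.809 and 0.750 CPM (log2 fold change -1.05 ± 0.17 SE, adjusted p = 0.000342). TLR4 itself was at 42.6 to 47.0 CPM in shLuc and 42.4 to 47.5 CPM in shWDR5 (adjusted p = 0.96). MCAM, an adhesion molecule that binds S100A8 and S100A9, fell 3.08-fold (log2 fold change -1.62 ± 0.09 SE, adjusted p = 3.88e-07). ALCAM fell by 0.54 ± 0.09 on the log2 scale (adjusted p = 0.000714). MYD88, the adaptor of TLR4, rose by 0.43 ± 0.08 (adjusted p = 0.000876), and LY96, the TLR4 partner MD-2, had at most 0.025 CPM in any library.

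Among 16 intracellular partners, all tested, 4 rose, 6 fell and 6 were not called, with a median log2 fold change of -0.07. These counts lay near the shares of all genes tested (26.6% higher, 29.9% lower, median -0.01). The falls of ANXA11 and COPS5 did not hold with DESeq2's size factors (adjusted p = 0.0635 and 0.0569 in edgeR), with DESeq2 itself (adjusted p = 0.0849 and 0.1002), or without shLuc replicate 1, shWDR5 replicate 2 or shWDR5 replicate 3 (adjusted p from 0.0646 to 0.155 in edgeR), which left 4 falls. COPS5 also lost its call without shLuc replicate 3 (adjusted p = 0.0677 in edgeR) and without shWDR5 replicate 1 (adjusted p = 0.0629 in edgeR). ANXA2, the annexin that S100A10 binds, rose from 5589, 5114 and 5379 CPM to 7172, 6502 and 6944 CPM (log2 fold change 0.36 ± 0.06 SE, adjusted p = 0.000427). The RPKM of S100A10 was 0.185, 0.187 and 0.204 of that of ANXA2 in shLuc and 0.235, 0.229 and 0.241 in shWDR5. AHNAK, a giant protein held at the membrane by the same complex, rose by 0.43 ± 0.05 on the log2 scale (adjusted p = 5.05e-05). ANXA1, the partner of S100A11, fell from 1202, 1130 and 1214 CPM to 883, 900.2 and 853 CPM (log2 fold change -0.43 ± 0.05 SE, adjusted p = 5.67e-05), while S100A11 itself was higher. ANXA6 fell by 0.74 ± 0.08 (adjusted p = 3.29e-05), and the S100P-binding protein gene S100PBP fell by 0.38 ± 0.06 (adjusted p = 0.000257). CACYBP, the calcyclin-binding protein gene named for S100A6, fell by 0.37 ± 0.05 (adjusted p = 0.000165). MYH9, the myosin that S100A4 binds, was 1.13-fold higher (adjusted p = 0.0151).

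Of 18 transcription factors known to act on S100 genes, 17 were tested, 9 rose, 3 fell and 5 were not called, against 26.6% higher and 29.9% lower among all genes tested. Their median log2 fold change was 0.26, against -0.01 over all genes. FOS lost its call without shLuc replicate 2 (adjusted p = 0.0818 in edgeR), and FOS and FOSL1 did without shWDR5 replicate 2 (adjusted p = 0.0895 and 0.0606 in edgeR). PRDM1, or BLIMP1, rose from 20.1, 21.3 and 21.2 CPM to 34.5, 32.6 and 38.2 CPM (log2 fold change 0.75 ± 0.07 SE, adjusted p = 1.44e-05). The NF-kB subunit genes NFKB1 and RELA rose by 0.54 ± 0.06 (adjusted p = 2.73e-05) and 0.48 ± 0.06 (adjusted p = 8.35e-05). CEBPA fell from 7.45, 6.78 and 7.51 CPM to 2.98, 3.57 and 3.24 CPM (log2 fold change -1.15 ± 0.10 SE, adjusted p = 5.49e-06). ZNF750, a driver of epidermal differentiation, fell by 1.07 ± 0.09 on the log2 scale (adjusted p = 4.05e-06). STAT3, an activator of S100A8 and S100A9, was at 210 to 222 CPM in shLuc and 216 to 225 CPM in shWDR5 (adjusted p = 0.766).

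Cytokines that induce S100A7, S100A8 and S100A9 in epithelial cells had the highest median of these lists, 1.01, with 9 of 13 genes tested, 6 higher, 2 lower and 1 not called, against 26.6% higher, 29.9% lower and a median of -0.01 over all genes tested. TNF rose from 0.263, 0.129 and 0.198 CPM to 1.10, 1.00 and 1.15 CPM (log2 fold change 2.40 ± 0.25 SE, adjusted p = 1.90e-05). IL17C rose from 0.587, 0.490 and 0.719 CPM to 2.22, 1.95 and 1.85 CPM (log2 fold change 1.74 ± 0.17 SE, adjusted p = 1.52e-05). IL36G rose by 1.58 ± 0.28 (adjusted p = 0.000658) and IL36B by 1.21 ± 0.40 (adjusted p = 0.0257), both at low level. IL36B, at 3 to 7 control counts, lost its call in DESeq2 (adjusted p = 0.0994) and in edgeR without shLuc replicate 1, shLuc replicate 3 or shWDR5 replicate 1 (adjusted p from 0.0762 to 0.0917). IL1A was by far the most abundant of those that rose, at 174, 179 and 167 CPM in shLuc and 326, 368 and 357 CPM in shWDR5 (log2 fold change 1.01 ± 0.06 SE, adjusted p = 5.59e-07), whereas IL1B was at 192 to 230 CPM in shLuc and 196 to 218 CPM in shWDR5 (adjusted p = 0.331). IL20 fell by 1.26 ± 0.35 on the log2 scale (adjusted p = 0.0111). The other gene that fell was IL24 (log2 fold change -0.74 ± 0.10 SE, adjusted p = 0.000116). It went from 20.2, 18.4 and 15.6 CPM in shLuc to 10.6, 11.5 and 10.2 CPM in shWDR5. TNF and IL36B would not have passed the low-count filter on their shLuc libraries alone, nor IL20 on its shWDR5 libraries alone. The direction of these calls was thus nearly built into their testing. IL17A and IL22 had no counts in any library.

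**Figure D5:**
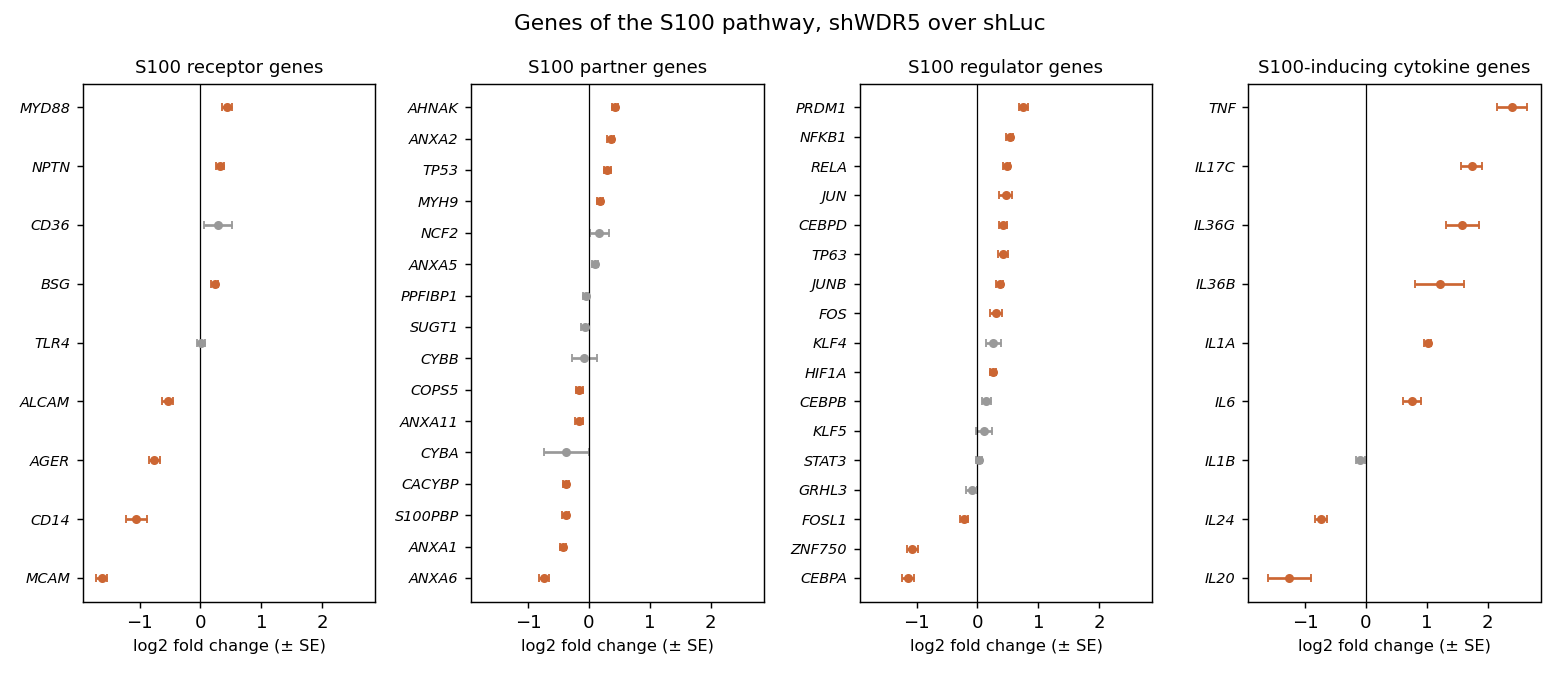
Log2 fold change of shWDR5 over shLuc with SE (horizontal axis) for the tested receptor, partner, regulator and cytokine genes, coloured where the adjusted p was below 0.05 and grey otherwise. Receptor and partner genes lie on both sides of 0, 9 of 17 regulators and 6 of 9 cytokines rose, and TNF lies farthest to the right at 2.40.

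The genes whose pattern over the 6 libraries was nearest to that of S100A8, by Euclidean distance between centred log2 CPM, were G0S2 (distance 0.487), OPCML (0.660), LOC401286 (0.720), C6orf15 (0.780) and SAMD14 (0.788). All are low in shLuc, between 0.0516 and 0.471 CPM, and had log2 fold changes of 3.77 to 4.06. The distance follows mainly the log2 fold change, so similar values among the nearest genes come with the measure. OPCML, LOC401286, C6orf15 and SAMD14 would not have passed the filter on low counts without their shWDR5 libraries. Other members of the list were farther away: S100A7 was the nearest member at rank 128 (distance 2.46), then S100A9 at rank 200 and S100A4 at rank 314, and S100A14 was at rank 15954.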

How the data were processed

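Poly(A) RNA of 3 shLuc and 3 shWDR5 libraries of MCF10DCIS.com was sequenced. The authors deposited read counts per gene, made, as the submitters' processing notes name them, with TopHat2 2.1.0 and featureCounts on hg19. The annotation release, the treatment of reads with several matches and the strand setting are not given in the sources used here. The deposited table also gives each gene's exon length in bases. A second deposited table holds the authors' own edgeR 3.2.2 comparison (fold changes, p-values) and was not used.

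Counts were filtered with filterByExpr (16117 of 26334 genes kept), scaled by TMM and tested with edgeR 4.0.16 (R 4.3.3) by quasi-likelihood with Benjamini-Hochberg adjustment over all genes tested, called below 0.05. The SE is the log2 fold change divided by the square root of F, and the 95% interval is 1.96 SE either way. CPM uses the TMM-scaled library size, and RPKM divides it by exon length. The log2 CPM of the likeness measure used a prior count of 2. DESeq2 1.42.0, scaling by its size factors, no filter, the call rule of the study, a replicate block and leaving out libraries were tried, and both tools were tested on simulated data. The members and lists were chosen with earlier results of these data known. All members and WDR5 are named, with up to 5 called genes of largest absolute change per list. Genes named beyond this rule (S100A1, S100A13, TLR4, ANXA2, MYH9, ANXA11, COPS5, STAT3, FOS, FOSL1, IL1A, IL1B, IL24, the markers and genes with few or no counts), and the promoter motifs, were chosen after their values were seen. Total counts of 38218108 to 57640167 per library set the precision, least for genes with few counts. Protein sequences were not used here.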

Additional observations from a re-analysis of the deposited data

How the results depend on the processing

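All 10 S100 genes of the list kept their direction and their side of the call in all 100 alternatives run, which were scaling by DESeq2's size factors, no filter on low counts, DESeq2, a replicate block and leaving out each library. Without single libraries the log2 fold change of S100A8 ranged from 3.69 to 4.17 and that of S100A16 from 0.02 to 0.17. The ratio of summed CPM was 1.40 and ranged from 1.34 to 1.49 without single libraries, the highest without shLuc replicate 1. It was 1.34 with plain library totals. Leaving out libraries for this ratio was added after seeing the data. The call rule the study states (absolute log2 fold change of at least 0.6 and RPKM above 0.5 besides the adjusted p) lowered several counts, since it asks for more. Genes called fell from 9112 to 2962, other S100 genes from 6 to 2, receptors from 7 to 3, partners from 10 to 1 and regulators from 12 to 3, while 9 of the 10 genes of the list stayed called (18.4% of all genes tested). Outside that rule, other S100 genes called ranged from 5 to 6, receptors stayed at 7, partners ranged from 8 to 11, regulators from 10 to 14 and cytokines from 7 to 8. With the replicate block 10412 genes were called, 4901 higher and 5511 lower, and WDR5 was at -1.15. Deviations of libraries with the same number correlated at 0.37, 0.04 and 0.12. The 0.37 of the libraries numbered 1 was the highest of all pairs, but shLuc replicate 2 correlated best with shWDR5 replicate 3. The numbers were therefore not taken to pair the libraries in the main fit, and a tie between the libraries numbered 1 was not tested. With the block the SE of all 10 genes of the list was smaller, such as 0.05 against 0.10 for S100A6. Depth limits the genes with few control counts, such as S100A8 (14 to 38), S100A5 (5 to 17), TNF (5 to 13), S100A7A (4 to 11) and IL36B (3 to 7).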
